A study of Mus musculus with 8 samples.

Results

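The genes described here are 9 genes of iron handling and metal binding: Tfrc, Slc11a2, Fth1, Ftl1, Slc40a1, Aco1, Ireb2, Mt1 and Mt2. They were chosen by symbol, for what their products do, and each was found once among the 20278 genes listed in at least 1 of the 8 samples. All 9 had enough reads to be tested, as did 15287 genes in all.

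RNA was sequenced from N33, a mouse embryonic stem cell (ESC) line of the strain C57BL/6 in the labels (C57BL/6J in the study's methods), in 4 culture conditions with 2 replicates each. The −F cells grew in serum on gelatin, without feeder cells. The F cells grew in serum on feeders, which were mouse embryonic fibroblasts that mitomycin C had stopped from dividing. The F2i cells had serum, feeders and 2i, a pair of inhibitors of the kinases Mek and Gsk3β. The NB2i cells had 2i in N2B27, a defined medium that replaces serum, on poly-L-ornithine and laminin without feeders. LIF was present at 1000 U/ml in all 4 conditions, and serum at 20% in the first 3. Doses of 3 µM CHIR99021 and 1 µM PD0325901 are stated for N2B27 with 2i, and those in F2i are not given in the sources used here. Serum and the N2 and B27 supplements all contain transferrin. All samples came from 1 cell line, and the labels do not say whether the replicates were separate cultures, so that p-values measure only the spread between these samples, which may be technical. F against −F asks what feeders change, F2i against F what 2i changes on feeders, and NB2i against F2i what changes when serum and feeders are exchanged for N2B27. The comparisons share samples and are not independent of each other.

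Cells take up iron bound to transferrin through the transferrin receptor (Tfrc), and the transporter encoded by Slc11a2 (DMT1) moves it out of the endosome. Ferritin, a shell of heavy (Fth1) and light (Ftl1) chains, stores the iron, and ferroportin (Slc40a1) is the exporter. Iron regulatory proteins, encoded by Aco1 (IRP1) and Ireb2 (IRP2), bind hairpins called iron responsive elements when iron is scarce. A hairpin ahead of the coding sequence then blocks translation, and hairpins behind it protect the mRNA from decay. An mRNA level is therefore not a measure of ferritin or ferroportin protein. Metallothioneins (Mt1, Mt2) are small cysteine-rich proteins that bind zinc and copper, and the zinc sensor Mtf1 is the known activator of their genes.

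Hairpins matched by the letters below in 4 members are shown because they are the feature that joins storage, export and uptake genes to the same regulators. They were found in GENCODE transcripts on mm10 by their letters: a C, a stem arm of 5 bases, the loop CAGTGN with A, C or T as its last base, and 5 bases that pair with the first arm, counting G with T as a pair. Capitals mark the 6 bases of the loop, and each sequence is printed 5′ to 3′ on the strand of the mRNA.
Fth1, 5′ UTR, exon 1 of 4, chr19:9982732-9982760, + strand: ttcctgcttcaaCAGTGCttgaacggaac
Ftl1, 5′ UTR, exon 1 of 4, chr7:45459779-45459807, − strand: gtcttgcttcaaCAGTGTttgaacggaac
Slc40a1, 5′ UTR, exon 1 of 8, chr1:45925465-45925493, − strand: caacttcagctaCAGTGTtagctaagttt
Tfrc element 1, 3′ UTR, exon 19 of 19, chr16:32631219-32631247, + strand: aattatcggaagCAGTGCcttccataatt
Tfrc element 2, 3′ UTR, exon 19 of 19, chr16:32631598-32631626, + strand: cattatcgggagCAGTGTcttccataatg
Tfrc element 3, 3′ UTR, exon 19 of 19, chr16:32631663-32631691, + strand: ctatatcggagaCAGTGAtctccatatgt
Tfrc element 4, 3′ UTR, exon 19 of 19, chr16:32631710-32631738, + strand: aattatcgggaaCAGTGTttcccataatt
The ferritin hairpins had the same stem arms, and that of Slc40a1 had another stem around the same loop as Ftl1. The same letters were found in 1.01% of 21877 protein-coding genes. No match was found in the transcripts of Slc11a2, Aco1, Ireb2, Mt1 or Mt2, which says only that these exact letters are not in them.

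Total expected counts per sample were between 20129641 and 20664488, and replicates had a biological coefficient of variation of 3.254%. The −F replicates differed most, with a chi-square per degree of freedom of 3.546. It was 2.301 in F, 2.083 in F2i and 1.837 in NB2i. According to the labels, ESCs were parted from feeders by adherence before extraction, but fibroblast RNA was still measured. The median level over 15 fibroblast markers was 0.23 FPKM (reads scaled by transcript length and by the depth of the sample) in −F, 13.7 in F, 37.3 in F2i and 0.08 in NB2i. Their summed level was 204.6 to 212 FPKM in −F, 593 to 615 in F, 1453 to 1465 in F2i and 793 to 817 in NB2i. In NB2i Postn, Dcn and Lum were at 0 in both samples, and Sparc (456.6 FPKM) and Fn1 (346 FPKM) made up nearly all of the sum. The summed level of 8 pluripotent cell markers was 4078 to 4490 FPKM over all samples. Dppa5a, named after its values had been seen, was the largest part, with condition means of 1846 to 2276 FPKM. Single markers moved in both directions beneath this sum. Utf1 was 477.8 FPKM in −F, 379.6 in F, 81.55 in F2i and 47.1 in NB2i. Nanog was 203.6 FPKM in −F, 270.2 in F, 473.4 in F2i and 299.2 in NB2i. In such bulk RNA, fewer cells of a kind and less RNA per cell cannot be told apart.

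One member, the iron exporter gene Slc40a1, changed by a large factor, and the other 8 changed by at most 1.45-fold in the 6 comparisons. Slc40a1 was 8.75 FPKM in −F, 3.57 in F, 0.185 in F2i and 0.16 in NB2i. Fth1 fell from 556.2 FPKM in −F to 380.3 in F2i, Aco1 was highest in NB2i, and Mt2 was higher in NB2i than in the other 3 conditions. Ftl1 and Ireb2 passed the test in none of the 6 comparisons.

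**Figure D1:**
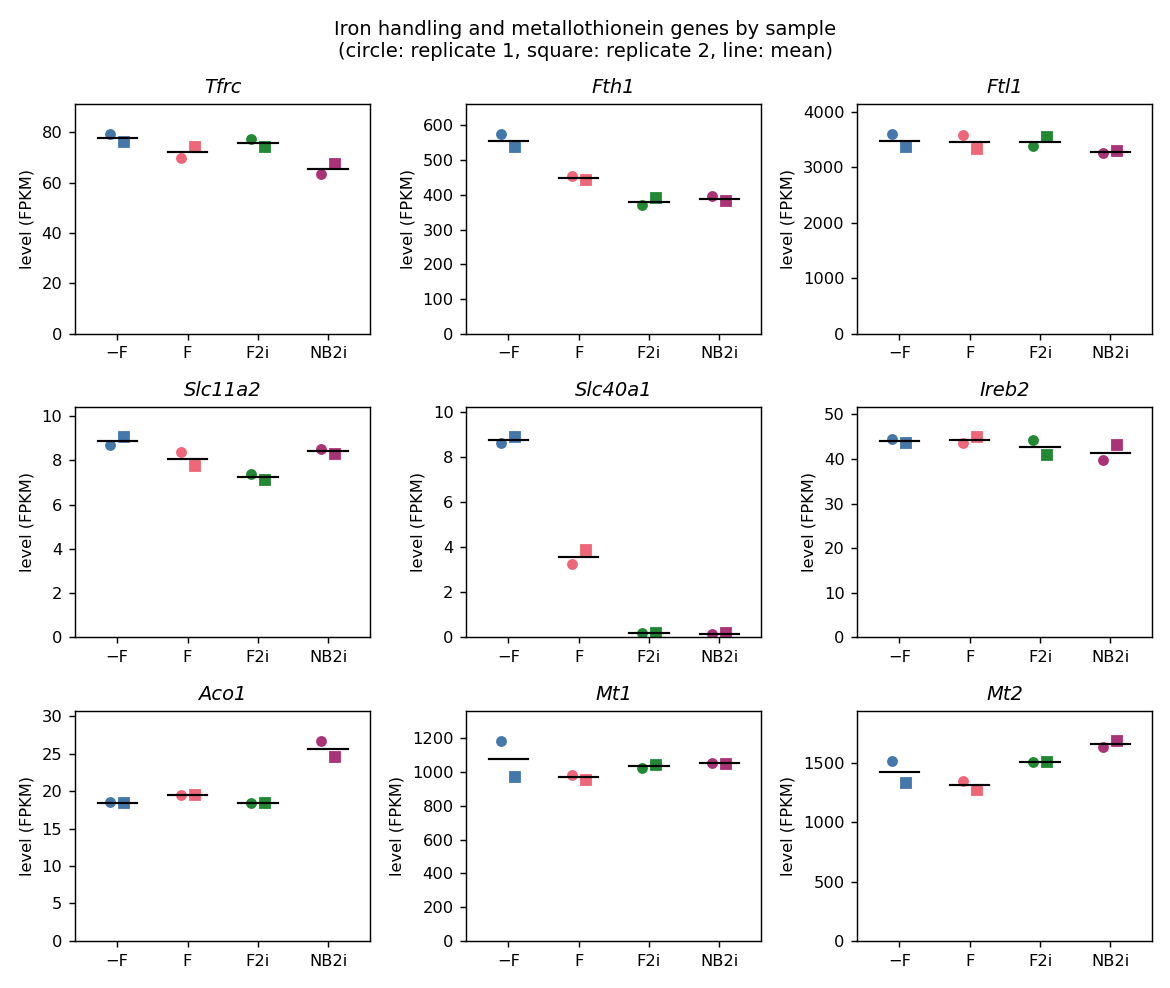
Level of each gene in FPKM (vertical axes from 0, a scale for each gene) in the 8 samples, with a circle for replicate 1, a square for replicate 2 and a line at the mean. Slc40a1 sits between 8.62 and 8.88 in −F and between 0.13 and 0.19 in F2i and NB2i, while the other genes stay within a narrow range.

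A gene is said to have passed the test at an edgeR adjusted p under 0.05, and to be called if its fitted level also differed at least 2-fold. Differences are log2 fold changes, the first condition minus the second, with ± for their SE. In F against −F 0 of 9 members were higher and 2 lower past the test, beside 21.7% and 18.5% of all tested genes. In F2i against F 2 members were higher and 2 lower, beside 27.3% and 27.4%. In NB2i against F2i 3 were higher and 1 lower, beside 33.3% and 30.8%. In NB2i against F 3 were higher and 2 lower, beside 36.3% and 37.1%, and in NB2i against −F 2 were higher and 3 lower, beside 36.9% and 35.4%. In F2i against −F 1 was higher and 3 were lower, beside 34.5% and 33.3%. Replicates were so alike that most genes passed in 5 of the 6 comparisons, and the counts of members, near or below these backgrounds, carry no result about them as a group. Slc40a1 was the called member in each of 5 comparisons, always lower, and NB2i against F2i had none. Genes called lower were 1.65% of those tested in F against −F, 7% in F2i against F, 13.3% in NB2i against F2i, 17.6% in NB2i against F, 16.1% in NB2i against −F and 9.82% in F2i against −F. With 2 samples against 2, an exact two-sided permutation test of a single gene cannot go below a p of 0.333, so the adjusted p-values rest on the model fitted across all genes.

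**Figure D2:**
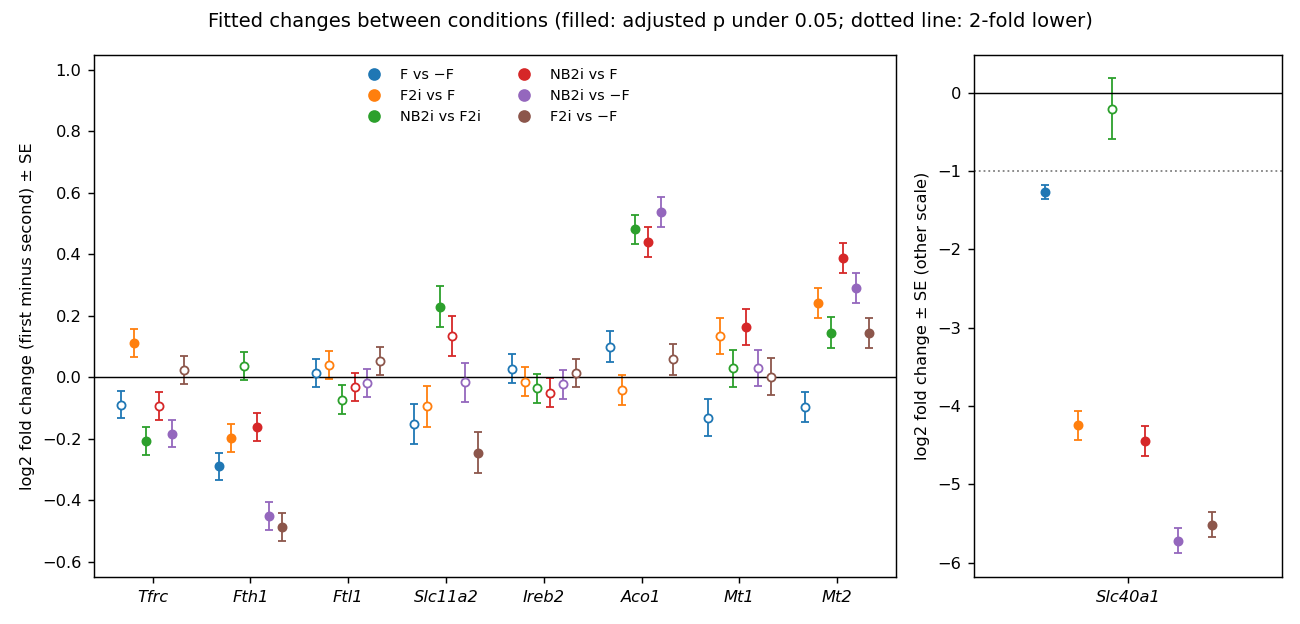
Fitted log2 fold change (first condition minus second, vertical axis) with its SE for each gene in the 6 comparisons, with filled points at an edgeR adjusted p under 0.05 and Slc40a1 on a scale of its own. Points of 8 genes lie between −0.49 and 0.54, and those of Slc40a1 between −5.72 and −0.20.

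Of the uptake genes, Tfrc (Entrez 22042, mm10 chr16:32608920-32632794, + strand) changed little. Its level was 79.51 and 76.26 FPKM in the −F replicates, 69.96 and 74.19 in F, 77.41 and 74.33 in F2i, and 63.32 and 67.63 in NB2i. Both NB2i samples were below all 6 others. Tfrc was lower in NB2i than in F2i by a log2 fold change of −0.21 ± 0.0454 (SE, edgeR adjusted p = 0.00046) and lower than in −F, at −0.18 ± 0.0453 (adjusted p = 0.0011). Against F the difference was −0.09 (95% confidence interval −0.19 to 0.0004, adjusted p = 0.068), which passed with at least 10 counts in every sample (−0.12, adjusted p = 0.019) and without F replicate 1 (−0.14, adjusted p = 0.03). Tfrc was higher in F2i than in F by 0.11 ± 0.0452 (adjusted p = 0.041). This difference no longer passed without the filter on low counts, or on leaving out F replicate 1 or either F2i replicate. In order of level, −F and F2i did not differ beyond their spread (log2 fold change of F2i against −F 0.02, adjusted p = 0.66), and F against −F did not pass the test (−0.09, adjusted p = 0.12).

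Slc11a2 (Entrez 18174, chr15:100387898-100425072, − strand) was a gene of low level. It measured 8.67 and 9.04 FPKM in −F, 8.38 and 7.73 in F, 7.39 and 7.11 in F2i, and 8.53 and 8.27 in NB2i. The F2i samples were the lowest, and F replicate 2, at 7.73, came next. Slc11a2 was lower in F2i than in −F, at −0.25 ± 0.0664 (edgeR adjusted p = 0.0026) and higher in NB2i than in F2i by 0.23 ± 0.0668 (adjusted p = 0.0051). With DESeq2 the second difference did not pass (0.21, adjusted p = 0.06). F against −F did not pass (−0.15, edgeR adjusted p = 0.072), but passed in edgeR with DESeq2's size factors (−0.17, adjusted p = 0.048). Neighbours in the order −F, NB2i, F and F2i did not pass the test, with −0.02 for NB2i against −F (adjusted p = 0.82), 0.13 for NB2i against F (adjusted p = 0.073) and −0.09 for F2i against F (adjusted p = 0.25). The files quantify 2 RefSeq transcripts of the gene as one, and the mean transcript length that RSEM assigned was 3749 to 3896 bases over the samples.

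Of the storage genes, Fth1 (Entrez 14319, chr19:9980598-9985098, + strand), whose protein oxidises iron as it enters ferritin, fell with feeders and again with 2i. Its level was 575.93 and 536.50 FPKM in −F, 453.50 and 442.03 in F, 369.51 and 391.17 in F2i, and 395.83 and 380.80 in NB2i. The −F samples were above all others, the F samples came next, and the F2i and NB2i samples overlapped. Fth1 was lower in F than in −F, at −0.29 ± 0.045 (edgeR adjusted p = 2.4e-05). It was lower again in F2i than in F, at −0.20 ± 0.0455 (adjusted p = 0.00093). The whole difference of F2i from −F was −0.49 ± 0.0453 (adjusted p = 4.1e-09), and that of NB2i from −F was −0.45 ± 0.0452 (adjusted p = 1e-08). NB2i was also lower than F, at −0.16 ± 0.0454 (adjusted p = 0.0033). This difference no longer passed without NB2i replicate 2, where it was −0.12. NB2i did not differ from F2i beyond the spread (0.04, 95% interval −0.06 to 0.13, adjusted p = 0.5). Of the 15 fibroblast markers 15 rose past the test in F against −F and 12 in F2i against F, where Fth1 fell. In NB2i, where Fth1 was at 388.3 FPKM beside 380.3 in F2i, 13 of them were at 0 to 0.86 FPKM, and Sparc and Fn1 were at 456.6 and 346. Their part in the level of Fth1 was not tested.

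Ftl1 (Entrez 14325, chr7:45457944-45459884, − strand) was among the most abundant mRNAs. By FPKM it had rank 2 among all genes in each sample of −F, F and F2i, and ranks 3 and 4 in NB2i. It measured 3608.52 and 3361.81 FPKM in −F, 3587.07 and 3339.46 in F, 3384.18 and 3548.96 in F2i, and 3261.61 and 3303.32 in NB2i. The samples of −F, F and F2i overlapped, and both NB2i samples were the lowest. No comparison passed the test. The largest difference was −0.07 between NB2i and F2i (95% interval −0.17 to 0.02, edgeR adjusted p = 0.18), which passed with only the groups compared in the fit (−0.10, adjusted p = 0.024). The mouse genome has processed copies of Ftl1, reads from which cannot be told apart from its own, so its level is uncertain to that extent. Within a sample, the ratio of Ftl1 to Fth1 in FPKM was 6.27 in both −F replicates, 7.91 and 7.56 in F, 9.16 and 9.07 in F2i, and 8.24 and 8.68 in NB2i. It was lowest in −F and highest in F2i, and Fth1 passed the test between these conditions where Ftl1 did not.

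The exporter gene Slc40a1 (Entrez 53945, chr1:45908068-45926523, − strand) fell with feeders and nearly disappeared with 2i. Its level was 8.62 and 8.88 FPKM in −F, 3.26 and 3.88 in F, 0.18 and 0.19 in F2i, and 0.13 and 0.19 in NB2i. The expected counts were 600 and 618 in −F, 225 and 271 in F, 12 and 13 in F2i, and 9 and 13 in NB2i. The −F, F and 2i samples lay in 3 separate ranges, and the conditions with 2i overlapped. Slc40a1 was lower in F than in −F by a log2 fold change of −1.27 ± 0.0878 (SE), or 2.41-fold (edgeR adjusted p = 1.5e-10). In F2i it was lower than in F, at −4.25 ± 0.188, or 19.0-fold (adjusted p = 3.1e-14), and 27 of the 15287 tested genes fell further in that comparison. In NB2i it was lower than in F, at −4.45 ± 0.192 (adjusted p = 6.2e-15) and lower than in −F, at −5.72 ± 0.161, or 52.7-fold (adjusted p = 3.2e-18). In F2i it was lower than in −F, at −5.52 ± 0.158, or 45.8-fold (adjusted p = 6.9e-18). NB2i and F2i did not differ beyond the spread (−0.20, 95% interval −1.003 to 0.60, adjusted p = 0.68), an interval that still holds a 2-fold decrease.

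In the 5 comparisons that called Slc40a1, its direction and its call were the same under each alternative that kept the gene. A filter of at least 10 counts in every sample removes it, since NB2i replicate 1 had 9. Slc40a1 was 0.185 FPKM in F2i, where the fibroblast markers had a median of 37.3 FPKM, and 0.16 in NB2i, where 13 of 15 were at 0 to 0.86 FPKM and Sparc and Fn1 were high. The summed level of 10 primitive endoderm markers was 14.2 to 16.6 FPKM in −F, 28.1 to 29.2 in F, 12.6 to 12.9 in F2i and 23.9 to 24.3 in NB2i, with no marker at 0 throughout a condition. Lama1, at 20.75 FPKM, made up most of the sum in NB2i. The median marker was 0.4975 FPKM in −F, 1.862 in F, 0.5825 in F2i and 0.1675 in NB2i. Like Slc40a1, 8 of the 10 markers fell past the test in F2i against F and 9 in NB2i against F, while 9 rose in F against −F, where Slc40a1 fell. The part of such cells in the level of Slc40a1 was not tested.

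The genes of both iron sensors behaved differently. Aco1 (Entrez 11428, chr4:40143081-40198338, + strand), whose protein is an aconitase when it carries an iron-sulfur cluster and binds RNA when it does not, was higher in N2B27. It measured 18.57 and 18.41 FPKM in −F, 19.50 and 19.51 in F, 18.49 and 18.42 in F2i, and 26.73 and 24.55 in NB2i. Both NB2i samples were above all 6 samples grown in serum, which lay between 18.41 and 19.51 FPKM. Aco1 was higher in NB2i than in F2i by 0.48 ± 0.0485 (edgeR adjusted p = 2e-08), than in F by 0.44 ± 0.0482 (adjusted p = 4.4e-08) and than in −F by 0.54 ± 0.0485, or 1.45-fold (adjusted p = 1.7e-09). No comparison among the 3 serum conditions passed the test, with log2 fold changes from −0.04 to 0.10 and adjusted p-values of 0.12, 0.5 and 0.31.

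Ireb2 (Entrez 64602, chr9:54863789-54912530, + strand) measured 44.54 and 43.57 FPKM in −F, 43.59 and 44.86 in F, 44.34 and 40.95 in F2i, and 39.78 and 43.02 in NB2i. The ranges of neighbouring conditions overlapped. Its largest difference was −0.05 for NB2i against F (95% interval −0.15 to 0.05, edgeR adjusted p = 0.33), so that a change of more than about 0.15 on the log2 scale lies outside that interval. The ratio of Aco1 to Ireb2 in FPKM was 0.42 ± 0.00397 (SD, n = 2) in −F, 0.441 ± 0.0088 in F, 0.433 ± 0.0232 in F2i and 0.621 ± 0.0716 in NB2i.

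**Figure D3:**
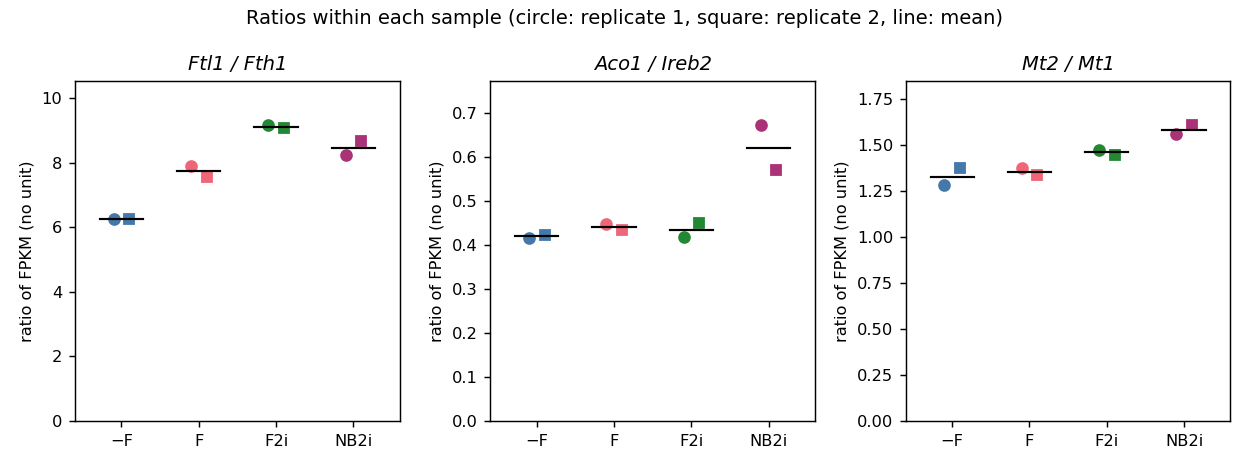
Ratio of FPKM within each sample for Ftl1 to Fth1, Aco1 to Ireb2 and Mt2 to Mt1 (vertical axes from 0, no unit), with a circle for replicate 1, a square for replicate 2 and a line at the mean. Ftl1 to Fth1 is lowest in −F at 6.27, Aco1 to Ireb2 is highest in NB2i at 0.672 and 0.571, and Mt2 to Mt1 is highest in NB2i at 1.56 and 1.61.

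Mt1 and Mt2 lie beside each other on chr8, Mt2 (Entrez 17750) at chr8:94172664-94173568 and Mt1 (Entrez 17748) at chr8:94179082-94180327, both on the + strand. Their regulatory letters are shown because zinc acts on both genes through them. Metal response element cores have the letters TGCACNC or TGCGCNC, and 4 lie ahead of the coding sequence in the annotated Mt1 transcript and 3 in that of Mt2, counting both strands. The stretch from the core just ahead of the TATA box through that box is printed 5′ to 3′ on mm10, with the core and the letters TATAAA in capitals.
Mt1, exon 1, chr8:94179187-94179215, + strand: TGCGCCCggactcgtccaacgacTATAAA
Mt2, exon 1, chr8:94172729-94172758, + strand: TGCGCTCgacccaatactctccgcTATAAA
These letters lie inside the annotated first exons, so that the annotated starts are upstream of the TATA letters. In the 250 bases ahead of the RefSeq start (GRCm38.p6 table), Mt2 had 3 cores and Mt1 had 1. Of 32851 such windows 21.4% had at least 1 core and 1.26% at least 3. Windows were at hand for 7 members, and apart from the metallothioneins 1 of the windows of Tfrc held cores, 2 of them.

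Mt1 was abundant in all conditions, at 1184.59 and 970.20 FPKM in −F, 981.33 and 954.69 in F, 1024.39 and 1044.00 in F2i, and 1051.39 and 1049.68 in NB2i. The gap between the −F replicates was wider than any gap between condition means, and the −F samples spanned all others but F replicate 2. Mt1 passed the test in 1 of 6 comparisons, NB2i against F, by 0.16 ± 0.0592 (edgeR adjusted p = 0.018). This difference no longer passed with DESeq2, without the filter on low counts, or without F replicate 2 or NB2i replicate 1. F against −F gave −0.13 (95% interval −0.25 to −0.0086, adjusted p = 0.082), F2i against F 0.13 (adjusted p = 0.061) and NB2i against F2i 0.03 (adjusted p = 0.68). F2i against F passed with DESeq2's size factors (0.14, adjusted p = 0.044), with at least 10 counts in every sample (0.14, adjusted p = 0.046) and with only the groups compared (0.14, adjusted p = 0.0049). Comparisons with −F depended on which −F library was kept. NB2i against −F was 0.03 (adjusted p = 0.65), but 0.18 without −F replicate 1 (adjusted p = 0.00088) and −0.11 without −F replicate 2 (adjusted p = 0.027), and so passed the test in opposite directions. F2i against −F was 0.0022 (adjusted p = 0.98), but 0.15 (adjusted p = 0.0042) and −0.14 (adjusted p = 0.0075), and F against −F became 0.02 (adjusted p = 0.82) and −0.27 (adjusted p = 2.5e-05).

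Mt2 was higher with 2i and highest in NB2i. It measured 1518.70 and 1335.67 FPKM in −F, 1349.90 and 1276.35 in F, 1512.71 and 1511.83 in F2i, and 1641.26 and 1689.29 in NB2i. Both NB2i samples were above all others, both F2i samples were above those of F, and −F replicate 1 lay just above the F2i samples. Mt2 was higher in NB2i than in F by 0.39 ± 0.0496, or 1.31-fold (edgeR adjusted p = 4.4e-07), and higher than in −F by 0.29 ± 0.0495 (adjusted p = 2.1e-05). It was higher in F2i than in F by 0.24 ± 0.0496 (adjusted p = 0.00029). Smaller differences were 0.15 ± 0.0494 for NB2i against F2i and 0.14 ± 0.0495 for F2i against −F (both adjusted p = 0.014). The former was lost with at least 10 counts in every sample and without either F2i replicate or NB2i replicate 2, and the latter without −F replicate 2, without either F2i replicate and without the filter on low counts. F against −F did not pass the test (−0.10, adjusted p = 0.13), and was −0.19 without −F replicate 2 (adjusted p = 0.0018) and −0.0057 without −F replicate 1. The ratio of Mt2 to Mt1 in FPKM was 1.33 ± 0.0669 (SD, n = 2) in −F, 1.36 ± 0.0273 in F, 1.46 ± 0.0202 in F2i and 1.59 ± 0.0342 in NB2i, and the −F replicates, at 1.28 and 1.38, differed less in it than in either level.

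Several other genes of iron transport changed by larger factors than the members other than Slc40a1. Of 17 listed genes 15 were tested. The counts of this and the following lists stand beside shares of all tested genes of 21.7% higher and 18.5% lower in F against −F, 27.3% and 27.4% in F2i against F, and 33.3% and 30.8% in NB2i against F2i. In F2i against F 3 of them rose and 5 fell past the test (median log2 fold change −0.01, and −0.0028 over all genes), and in NB2i against F2i 1 rose and 9 fell (median −1.42, and 0.02 over all genes). In F against −F 4 rose and 3 fell (median −0.26, and 0 over all genes). Slc39a14, which carries iron not bound to transferrin across the membrane, was 20.35 and 21.00 FPKM in −F, 21.72 and 21.00 in F, 2.35 and 2.40 in F2i, and 0.74 and 0.88 in NB2i. It fell with 2i and did not pass the test with feeders: F2i against F was −3.13 ± 0.065 (edgeR adjusted p = 1.2e-19), F against −F was 0.07 (adjusted p = 0.27) and NB2i against F2i was −1.55 ± 0.112 (adjusted p = 9.7e-11).

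Members of the Steap family, some of which reduce iron and copper so that they can be transported, did not move as one. Steap1 was 9.37 and 9.50 FPKM in −F, 6.91 and 6.89 in F, 2.90 and 2.82 in F2i, and 1.17 and 0.53 in NB2i. Steap2 had the same order, at 6.65 and 6.15, 4.90 and 5.09, 1.66 and 1.63, and 0.32 and 0.38. In F2i against F Steap1 fell by 1.23 ± 0.156 (edgeR adjusted p = 8e-07) and Steap2 fell by 1.57 ± 0.0713 (adjusted p = 5e-14). Steap3, the endosomal reductase that works beside DMT1, rose instead by 0.68 ± 0.0778 in F2i against F (adjusted p = 1.9e-07) and fell by 2.24 ± 0.0947 in NB2i against F2i (adjusted p = 9.5e-15). Its level was 4.66 and 4.94 FPKM in −F, 7.62 and 7.46 in F, 10.85 and 12.49 in F2i, and 2.63 and 2.35 in NB2i. That is also the order of the median fibroblast marker, though not of their summed level, and the part of fibroblasts in it was not tested. Heph, a ferroxidase that works beside ferroportin, was 0.39 and 0.45 FPKM in −F, 0.34 and 0.26 in F, 0.49 and 0.67 in F2i, and 3.4 and 3.2 in NB2i, a rise of 2.51 ± 0.139 against F2i (adjusted p = 9.4e-13), where Slc40a1 had almost no reads. Lrp1, a scavenger receptor that also takes up heme bound to hemopexin, rose in F against −F by 1.26 ± 0.0588 (adjusted p = 1.9e-13), at 8.69 against 3.68 FPKM, and was 13.2 in F2i and 4.91 in NB2i. It thus rose from −F to F to F2i as the fibroblast markers did, whose part in it was not tested. Tfr2, the second transferrin receptor, was 1.28 FPKM in F and 0.13 in NB2i (−3.34 ± 0.271, adjusted p = 3.5e-10).

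Around ferritin, 4 of 6 listed genes were tested, and Ftl2 and Ftmt were not analysed here. Ncoa4, the receptor that takes ferritin to the lysosome, and Fbxl5, which marks IRP2 for decay when iron is plentiful, were named after their values had been seen. Ncoa4 rose in F against −F (0.21, edgeR adjusted p = 0.00034) and in F2i against F (0.25, adjusted p = 2.4e-05) and fell in NB2i against F2i (−0.27, adjusted p = 5.9e-06). Fbxl5 fell in F against −F (−0.21, adjusted p = 0.0028) and rose in F2i against F (0.31, adjusted p = 3.2e-05) and in NB2i against F2i (0.32, adjusted p = 9.4e-06). In these comparisons the list had 1, 2 and 1 genes higher and 2, 0 and 1 lower. The hepcidin axis, by which the liver sets the amount of ferroportin, was nearly silent: 2 of 5 genes could be tested. Hfe2 was 1.26 FPKM in −F, 0.655 in F, 0.145 in F2i and 0.035 in NB2i. Bmp6 was 1.08 FPKM in −F, 0.83 in F, 0.495 in F2i and 0.095 in NB2i. Hfe2 and Bmp6 had log2 fold changes of −4.95 ± 0.500 and −3.39 ± 0.348 in NB2i against −F (adjusted p = 1.2e-08 and 1.5e-08). The size of these changes rests on NB2i levels near 0.

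Mitochondrial iron and iron-sulfur genes changed by small factors. Of 20 genes, 3 rose and 9 fell past the test in F2i against F (median −0.07), and 11 rose and 4 fell in NB2i against F2i, where the median log2 fold change was 0.24 beside 0.02 over all genes. Hscb, a chaperone that hands on iron-sulfur clusters, was the called gene of the list, with 25.6 FPKM in NB2i and 13.1 in F (1.01 ± 0.085, edgeR adjusted p = 6.6e-10). Of 14 tested genes of heme synthesis and breakdown, 5 rose and 5 fell in F2i against F (median 0.01), beside 27.3% and 27.4% of all tested genes. In NB2i against F2i 4 rose and 2 fell (median 0.0076), beside 33.3% and 30.8%. Blvrb, a biliverdin reductase, was 73.3 FPKM in NB2i and 36.3 in F (1.06 ± 0.0742, adjusted p = 3e-11). Bach1, a repressor of heme and iron genes that heme itself releases, was 22.7 FPKM in F2i and 10.6 in −F (1.16 ± 0.0529, adjusted p = 2.3e-14). It was 17.4 FPKM in F and 18.9 in NB2i. From −F to F to F2i its order was that of the fibroblast markers, whose part in it was not tested.

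**Figure D4:**
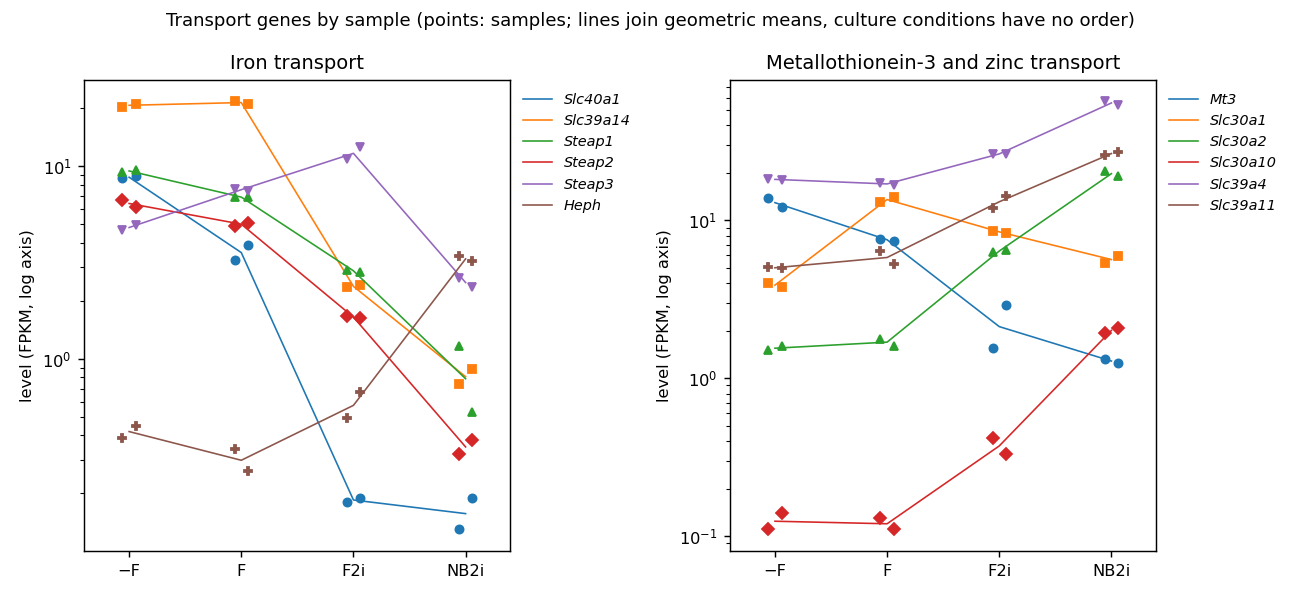
Levels in FPKM (log axes) of Slc40a1 with other iron transport genes on the left and of Mt3 with zinc transport genes on the right, as points for the samples and lines through the geometric means of 4 conditions that have no order among themselves. Slc40a1, Slc39a14, Steap1 and Steap2 are lower in F2i and NB2i than in −F and F, while Heph and Slc30a10 are highest in NB2i at 3.30 and 2.01 FPKM.

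Several genes of zinc handling changed by larger factors than Mt1 and Mt2. Of 22 tested genes of the metal response and zinc transport list, 13 rose and 5 fell past the test in F2i against F (median 0.21), and 12 rose and 4 fell in NB2i against F2i (median 0.30), beside medians of −0.0028 and 0.02 over all genes. Mt3, a metallothionein best known from the brain, was 13.90 and 12.08 FPKM in −F, 7.64 and 7.44 in F, 1.56 and 2.89 in F2i, and 1.33 and 1.24 in NB2i. It fell by 1.72 ± 0.238 in F2i against F (edgeR adjusted p = 2.6e-06), a direction opposite to that of Mt2. Slc30a1, the zinc exporter of the cell surface and like Mt1 a target of Mtf1, was 4.0 and 3.78 FPKM in −F, 13 and 14.14 in F, 8.54 and 8.38 in F2i, and 5.36 and 5.95 in NB2i. It rose by 1.83 ± 0.069 in F against −F (adjusted p = 4.7e-15), where Mt1 and Mt2 did not pass the test. Mtf1 itself, named after its values had been seen, did not pass in F against −F (0.09, adjusted p = 0.3), rose by 0.21 in F2i against F (adjusted p = 0.013) and rose by 0.33 in NB2i against F2i (adjusted p = 0.00015).

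Some zinc transporters rose with 2i and again in N2B27. Slc30a2, which loads zinc into vesicles, was 1.5 and 1.6 FPKM in −F, 1.78 and 1.61 in F, 6.27 and 6.52 in F2i, and 20.57 and 19.02 in NB2i, with changes of 1.96 ± 0.0993 in F2i against F (edgeR adjusted p = 3.1e-13) and 1.64 ± 0.068 in NB2i against F2i (adjusted p = 6.7e-15). Slc39a11 was 5.85 FPKM in F, 13.2 in F2i and 26.5 in NB2i, with changes of 1.21 ± 0.0904 (adjusted p = 2.1e-10) and 1.02 ± 0.0748 (adjusted p = 1.2e-10). Slc39a4, a zinc importer, was 55.5 FPKM in NB2i and 26.4 in F2i (1.08 ± 0.0483, adjusted p = 2.3e-14). Slc30a10, an exporter of manganese, was 2.01 and 0.375 FPKM (2.44 ± 0.156, adjusted p = 1.1e-11).

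The genes most like 3 of the members were sought by Pearson's r of log2(FPKM + 1) over the 8 samples. These samples are 4 conditions in pairs. Candidates were 1576 genes of at least 5 FPKM on average whose level on that scale ranged at least 2-fold. Fth1, Tfrc and Mt1 themselves ranged less, so genes of their own small range were not candidates. For Fth1 they were Car2 (r = 0.989), Krt19 (r = 0.984) and Podxl (r = 0.98). With 0.1 added in place of 1, 2310022B05Rik (r = 0.988) came first and Podxl was no longer among the nearest 3. Car2 fell from 11.9 FPKM in −F to 4.94 in F, 1.74 in F2i and 1.62 in NB2i. Its wider range than that of Fth1 follows from the choice of candidates. For Tfrc they were Gnpda2 (r = 0.952), Bc1 (r = 0.937) and Gng2 (r = 0.917), each lowest in NB2i. The same 3 were nearest to Tfrc with 0.1 in place of 1. For Mt1 the best was Snord99 (r = 0.802), followed by Gm5860 (r = 0.602). With 0.1 in place of 1 Ccl27a (r = 0.721) came ahead of Gm5860. Genes that varied as little as Mt1, Mt2 among them, were left out, so the search cannot say whether any gene followed Mt1 closely. Slc40a1, added after its values were seen, was most like Braf (r = 0.999), Dnmt3b (r = 0.999) and Notch3 (r = 0.998), and with 0.1 in place of 1 as the pseudocount none of the 3 was among its nearest genes. Dnmt3b was 137.5 FPKM in −F, 62.3 in F, 17.01 in F2i and 16.54 in NB2i, and so kept a higher share of its −F level in F2i than Slc40a1 did.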

How the data were processed

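Poly-A RNA was read by the authors from one end (50 bases, BGISEQ-500), aligned to mm10 with Bowtie2 and quantified with RSEM. For each sample they deposited the expected count of each gene (not normalized, 29.5 to 30.0% of values not whole) and its FPKM, both deposited by the authors without pooling. Genes not listed in a sample were taken as 0. Expected counts were rounded and tested in edgeR 4.0.16 (R 4.3.3; glmQLFit, glmQLFTest) with all 8 samples in one fit, TMM factors of 0.9774 to 1.028 and genes of at least 10 counts in at least 2 samples, adjusting p-values by Benjamini and Hochberg's method within a comparison. Alternatives were DESeq2 1.42.0, its size factors, other filters, fewer groups, a replicate block and left-out samples. On simulated data of 15287 genes, 95 of 100 planted at 2-fold and 100 of 100 at 4-fold had an adjusted p under 0.05 in F against −F. The 3 false calls were counted by adjusted p and a change of at least 2-fold together. The share of planted genes that would be called by both was not counted. Replicates differed by more than sampling noise (chi-square per degree of freedom 1.837 to 3.546). The members and lists were chosen with earlier results of these data known. The text names the members, up to 4 called genes per list and comparison of at least 1 FPKM, and the 3 genes nearest to a member; others are marked. Coordinates are GENCODE's on mm10, counted from 1.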

Additional observations from a re-analysis of the deposited data

How the results depend on the processing

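Of 534 values of members under alternatives, 473 kept their direction and their side of the threshold, 19 no longer passed, 12 newly passed and 30 changed sign. The 615 values of list genes covered 62 pairs of a gene and a comparison in which that gene was called, and all kept both. Other differences named in the text were not among these pairs. They include those of Ncoa4, Fbxl5 and Mtf1, Steap3 in F2i against F and Slc39a14 in F against −F. Whether these hold under the alternatives was not tested. With DESeq2 141 genes were called lower in F against −F. With at least 10 counts in every sample, which removed Slc40a1 and other genes with few reads in a condition, genes called higher and lower were 306 and 87 in F against −F, 528 and 582 in F2i against F, 562 and 951 in NB2i against F2i, and 974 and 879 in F2i against −F, genes called lower were 1368 in NB2i against F and 1410 in NB2i against −F, and members called lower were 0 in the 5 comparisons that had 1.

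Changes of sign concerned differences that had not passed the test. For Mt1 F2i against −F became −0.0026 with DESeq2 and with its size factors, −0.0062 without a filter and −0.0045 with only the groups compared, and NB2i against F2i became −0.0068 with at least 10 counts in every sample. For Ftl1 F against −F became −0.0009 with DESeq2 and with its size factors. On leaving out 1 replicate, Mt1 ranged from −0.2684 to 0.0156 in F against −F, −0.1076 to 0.1762 in NB2i against −F and −0.1354 to 0.1487 in F2i against −F. Ftl1 ranged from −0.0364 to 0.0618 in F against −F, −0.0002 to 0.0896 in F2i against F, −0.0736 to 0.0158 in NB2i against F and −0.071 to 0.027 in NB2i against −F. Ireb2 ranged from −0.0689 to 0.0423 in F2i against F, −0.094 to 0.017 in NB2i against F2i, −0.091 to 0.0127 in NB2i against F, −0.0668 to 0.0369 in NB2i against −F and −0.0399 to 0.0713 in F2i against −F. Fth1 and Slc40a1 ranged from −0.009 to 0.0768 and from −0.485 to 0.0402 in NB2i against F2i, Slc11a2 from −0.0512 to 0.0103 in NB2i against −F and Tfrc from −0.0072 to 0.0534 in F2i against −F. The cause was not tested.

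Replicate numbers are shared between conditions. The deviations of same-numbered samples had r from −0.168 to 0.0801 across genes over 6 pairs of conditions. A value across genes cannot tell whether a part of the genes shared a batch, and the main fit assumed no pairing. With the replicate number as a block, 847 genes were called higher and 245 lower in F against −F, and Tfrc no longer passed in F2i against F (0.11, adjusted p = 0.053). The planned sum of Ftl1 with Ftl2 was not run. Levels of Slc40a1 in F2i and NB2i rest on 9 to 13 reads per sample.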

Other observations

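Genes of other responses that reach metallothioneins or Tfrc in other tissues were read from a list of 10. Bnip3, a mitophagy receptor induced by hypoxia, was 94.95 and 89.42 FPKM in −F, 80.91 and 77.80 in F, 39.60 and 40.03 in F2i, and 4.09 and 3.51 in NB2i, and fell by 3.38 ± 0.0772 (SE) in NB2i against F2i (edgeR adjusted p = 1.9e-19). Vegfa, another gene induced by hypoxia, went the other way, at 12.4 FPKM in −F and 32.1 in NB2i (1.43 ± 0.0501, adjusted p = 1.3e-16). Myc, which activates Tfrc in other cells, was 11.2 FPKM in −F, 7.19 in F, 2.00 in F2i and 0.92 in NB2i, and fell by 1.80 ± 0.114 in F2i against F (adjusted p = 1.3e-11), where Tfrc was 0.11 higher. Tsc22d3, a target of the glucocorticoid receptor, was 2.17 FPKM in F2i and 7.13 in NB2i (1.69 ± 0.12, adjusted p = 6.5e-11). Fkbp5 and Per1, listed with it and named after their values had been seen, did not move alike. In NB2i against F2i Fkbp5 rose by 0.28 (adjusted p = 4.4e-06) and Per1 fell by 0.42 (adjusted p = 1e-05). Of the 10 genes, 2 rose and 6 fell past the test in F2i against F (median −0.28), beside 27.3% and 27.4% of all tested genes, and 7 rose and 3 fell in NB2i against F2i (median 0.35), beside 33.3% and 30.8%.

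All 7 genes of copper handling were tested. In NB2i against F2i 5 rose and 0 fell past the test (median log2 fold change 0.18, and 0.02 over all genes), all by less than 2-fold. Slc31a2, a copper transporter of endosomes, was 3.86 and 4.32 FPKM in −F and 7.83 and 7.82 in NB2i (1.00 ± 0.105, edgeR adjusted p = 2.1e-08). The part of the culture media in these levels was not tested.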
